A study of Mus musculus with 4 samples.

Results

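The 10 genes described here, the members, belong to the machinery of histone H3 lysine 9 (H3K9) methylation and silent chromatin. All but Morc3 encode enzymes that methylate H3K9, proteins that bring those enzymes to chromatin or stabilise them, or proteins that read the mark. The members are Trim28, Setdb1, Atf7ip, Ehmt1, Ehmt2, Suv39h1, Cbx1, Cbx3, Cbx5 and Morc3. Each was chosen by its gene name, each matched exactly 1 row of the count table, and together they make up 10 of the 31247 genes listed there. RNA was sequenced from lung cells of mice on postnatal day 7, sorted for a Pdgfrb-GFP reporter that both groups carried, with about 300000 to 350000 cells per sample. The wild-type group (WT, 2 libraries) is labelled Wild type PDGFRb-GFP, and the labels do not say whether it carried the other transgenes. The Dnmt1 conditional knockout group (CKO, 2 libraries) carried the same PDGFRb-GFP reporter with Tbx4-rtTA and Tet-O-Cre, and its Dnmt1 genotype is given as Dnmt1-D/D. In that design the Tbx4 element drives the inducible activator rtTA, which switches on Cre, and the labels name neither an inducing agent nor a time of induction. Libraries are called A and B within each genotype as names only. In the count table WT B and both CKO libraries share a number in their column names and WT A does not. What that number stands for is not given in the labels, so leaving out WT A is also the comparison among the libraries that share it.

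Methylated H3K9 marks compact, silent chromatin. SETDB1, stabilised by ATF7IP, is brought to retroviral repeats by TRIM28, which KRAB zinc finger proteins tether to DNA. EHMT1 and EHMT2 (GLP and G9a) work as a pair that adds the first methyl groups in gene-rich regions, and SUV39H1 acts mainly on repeats around centromeres. The HP1 proteins, made from Cbx5 (HP1 alpha), Cbx1 (HP1 beta) and Cbx3 (HP1 gamma), bind the mark, and MORC3 is an ATPase of nuclear bodies that takes part in the silencing of retroviral repeats. This system and DNA methylation, which DNMT1 copies at each cell division, silence overlapping sets of repeats and genes.

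Libraries held 23071657 to 26420648 counted reads, and the members had between 236 reads (Suv39h1 in CKO B) and 7396 reads (Trim28 in CKO A). Levels are given as CPM, counts divided by the TMM-scaled library size in units of 1e6 reads. Dnmt1, the targeted gene, stood at 144 (A) and 115 (B) CPM among WT libraries, and 78.2 (A) and 29.5 (B) CPM among CKO libraries, a log2 difference of -1.27 ± 0.57 (SE, n = 2 per genotype) that edgeR did not call here (adjusted p = 0.310). The authors' deposited table gives Dnmt1 a log2 fold change of -1.23 with an adjusted p of 0.0290. CKO A alone held reads of the Y-linked gene Ddx3y (2494, against 0 in each other library). Sorted cells expressed the mesenchymal genes Pdgfrb (492 CPM in WT and 345 in CKO), Pdgfra (554 and 365) and Acta2 (3271 and 3595, means of 2). Of 10 mesenchymal markers edgeR called 0, and 2 (Tcf21 and Col1a1, 0.78 and 0.58 on the log2 scale) lay higher and 3 (Pdgfrb, Pdgfra and Tbx4, -0.51, -0.60 and -0.59) lower in CKO by the unadjusted p (under 0.05). Tcf21, Col1a1 and Tbx4 are named after their values were seen. Defining markers of other cell types were detected at lower levels. Ptprc of leukocytes had 0.922 to 2.47 CPM, Epcam of epithelium 0.259 to 1.02 and Pecam1 of endothelium 15.9 to 29.0. Sftpc, another epithelial marker named after its values were seen, was higher than Epcam. It stood at 30.5 and 86.5 CPM in WT and 83.5 and 27.95 CPM in CKO. Of 7 tested leukocyte markers edgeR called 3 higher in CKO (Cd74, Laptm5 and Fcer1g) and 0 lower. Over all tested genes 4.85% were called higher and 2.75% lower. Of the 7 differences 6 lay above 0 and 1 below (Cd79a, -0.85). Lyz2 was highest in CKO A (31.4 CPM) and lowest in CKO B (10.6 CPM). Summed levels of the leukocyte markers were 25.9 and 35.9 CPM in WT and 67.8 and 39.9 CPM in CKO. Of 6 epithelial, 6 endothelial and 6 pericyte markers edgeR called 0, and their summed levels were 41.1 and 111 CPM in WT and 105 and 38.6 CPM in CKO for epithelium, 70.4 and 98.8 against 131 and 74.5 CPM for endothelium, and 374 and 323 against 367 and 487 CPM for pericytes. The unadjusted p was under 0.05 for 0 epithelial, 0 endothelial and 1 pericyte marker. At that threshold 1994 of the 15210 tested genes lay higher and 1833 lower in CKO. The part of such cells in the results below was not tested.

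All 10 members have more CpGs in their promoter than the median promoter. In the 250 bases before the RefSeq start site (GRCm38.p6) they held 11 to 29 CpG dinucleotides, the site that DNMT1 methylates, against a median of 6 over 32536 promoter sequences of the same length. This is not particular to the members. Of the 8 other pathway promoters matched, all but that of Atrx (6 CpGs) also lay above the median. For Atf7ip and Trim28 that start lies 12684 and 25038 bases inside the start of the GENCODE gene. For Cbx3 it lies 256 bases inside, so its window falls within the GENCODE gene, which starts at base 51470360. Methylation itself was not measured here. The promoters of Cbx5 and Setdb1 are shown because these members lay furthest below WT, that of Cbx3 because it held the most CpGs of the members, and that of Kmt5c because it was the gene of the wider pathway called lower in CKO. Each is written 5′ to 3′ on the gene's own strand, with CpGs in capitals.
Cbx5 (chr15:103239853-103240102, minus strand, 22 CpGs): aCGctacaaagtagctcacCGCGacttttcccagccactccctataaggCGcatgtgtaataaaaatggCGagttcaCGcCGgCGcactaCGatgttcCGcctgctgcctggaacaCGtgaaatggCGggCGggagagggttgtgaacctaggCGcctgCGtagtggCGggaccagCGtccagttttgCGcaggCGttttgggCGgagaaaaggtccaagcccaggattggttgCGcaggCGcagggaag
Setdb1 (chr3:95357203-95357452, minus strand, 13 CpGs): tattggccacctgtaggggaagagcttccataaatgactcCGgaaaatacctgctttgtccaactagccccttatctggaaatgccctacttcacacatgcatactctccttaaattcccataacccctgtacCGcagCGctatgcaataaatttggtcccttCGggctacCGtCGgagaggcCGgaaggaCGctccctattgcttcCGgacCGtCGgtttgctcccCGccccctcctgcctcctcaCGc
Cbx3 (chr6:51470366-51470615, plus strand, 29 CpGs): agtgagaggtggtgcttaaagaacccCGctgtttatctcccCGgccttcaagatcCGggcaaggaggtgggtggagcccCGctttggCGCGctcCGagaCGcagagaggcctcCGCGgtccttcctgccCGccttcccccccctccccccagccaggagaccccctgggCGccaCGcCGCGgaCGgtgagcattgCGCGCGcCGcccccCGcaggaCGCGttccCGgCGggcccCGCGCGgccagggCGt
Kmt5c (chr7:4739877-4740126, plus strand, 13 CpGs): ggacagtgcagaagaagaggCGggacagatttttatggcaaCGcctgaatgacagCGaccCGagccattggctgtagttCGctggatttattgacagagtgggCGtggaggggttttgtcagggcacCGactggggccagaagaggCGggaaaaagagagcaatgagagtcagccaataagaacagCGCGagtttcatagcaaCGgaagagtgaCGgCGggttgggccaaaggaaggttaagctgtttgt
The Cbx5 window has more CpGs than 85.1% of the promoter sequences, the Setdb1 and Kmt5c windows more than 68.2% and the Cbx3 window more than 93.2%. For 4 members a divergent protein-coding neighbour starts within 1000 bases of the GENCODE gene start. Neighbours that do not encode proteins were not searched. Hnrnpa2b1 starts 466 bases from Cbx3 and Hnrnpa1 616 bases from Cbx5, and both encode abundant RNA-binding proteins. Their log2 differences were -0.06 ± 0.14 and -0.28 ± 0.14 (SE, edgeR adjusted p = 0.833 and 0.257), beside -0.05 for Cbx3 and -0.33 for Cbx5. The complement gene C2 starts 204 bases from Ehmt2 and had 10 and 20 reads in WT and 42 and 54 in CKO, a log2 difference of 1.70 ± 0.47 (edgeR adjusted p = 0.0671) beside -0.19 for Ehmt2. Slc27a5 starts 922 bases from the GENCODE start of Trim28, which is far from the RefSeq start used for the promoter. It had 3 to 7 reads per library and was not tested.

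No member was called different between the genotypes. With edgeR's quasi-likelihood test, 0 of 10 members were higher and 0 lower in CKO at an adjusted p under 0.05, while 7.61% of the 15210 tested genes were called (4.85% higher and 2.75% lower). At an unadjusted p under 0.05, 0 members were higher and 2 were lower, Cbx5 and Setdb1. Of the 15210 tested genes 1994 were higher and 1833 lower at that threshold. DESeq2 and limma-voom also called 0 of 10. The log2 differences ran from -0.33 to 0.01 with a median of -0.09, beside a median of -0.01 over all tested genes. Of the 10 differences 9 lay below 0, as did 7749 of the 15210. WT and CKO levels did not overlap for 7 members, all lower in CKO. Over all tested genes the levels did not overlap for 57.1%, and for 29.3% they did not overlap and were lower in CKO. In bulk RNA, fewer cells that express a gene and less RNA per cell cannot be told apart.

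**Figure D1:**
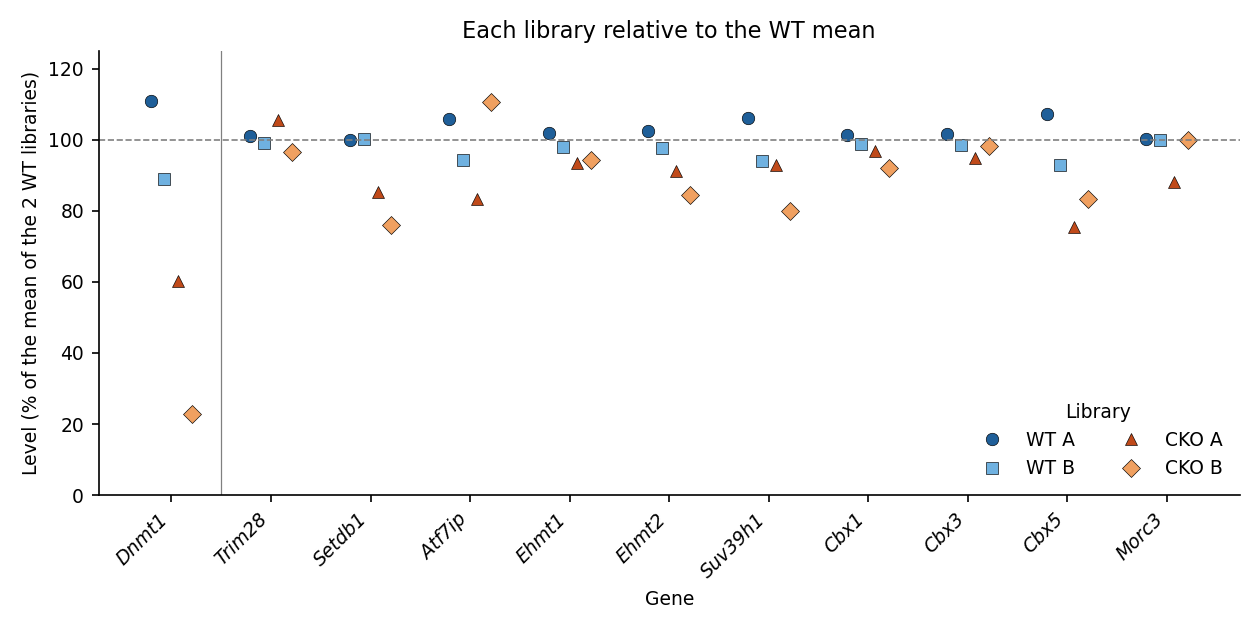
Level of Dnmt1 and of the 10 members in each of the 4 libraries, as a percentage of the mean of the 2 WT libraries (vertical axis, from 0). Each point is 1 library and the dashed line marks the WT mean. Members in CKO lie between 75.4% (Cbx5 in CKO A) and 111% (Atf7ip in CKO B), whereas Dnmt1 lies at 60.3% and 22.8%.

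The intervals give the range of change that these 4 libraries allow. The 95% intervals of the 10 differences, each for its own gene and not adjusted over genes, together ran from a fall (-34.7%, Cbx5) to a rise of 23.9% (Atf7ip). Standard errors on the log2 scale were 0.11 to 0.17. Members had mean levels of 11.9 to 268 CPM, and 7853 tested genes lay in that range, of which 575 were called. The smallest changes that edgeR called among those were a fall (-26.2%) and a rise of 36.1%. The median size of the log2 difference was 0.09 over the members and 0.18 over the genes in that range.

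TRIM28, the corepressor that recruits SETDB1, was the most highly expressed member per kilobase. Trim28 (ENSMUSG00000005566, chromosome 7, 12999114 to 13031035 in GENCODE M21 on GRCm38) stood at 269 (A) and 264 (B) CPM among WT libraries, and 282 (A) and 257 (B) CPM among CKO libraries. CKO A lay above and CKO B below both WT libraries. The log2 difference was 0.01 ± 0.11 (SE, n = 2 per genotype, edgeR adjusted p = 0.952), with an interval from -15.7% to 21.1%. Its sign turned to -0.01 with library size alone as the scaling and to -0.03 without CKO A.

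Setdb1, the H3K9 methyltransferase that TRIM28 recruits, was lower in both CKO libraries without passing the test. Setdb1 (ENSMUSG00000015697, chromosome 3, 95323525 to 95357202) stood at 50.8 (A) and 51.0 (B) CPM among WT libraries, and 43.4 (A) and 38.6 (B) CPM among CKO libraries. The WT libraries differed from each other by 0.396% and the CKO libraries by 12.3%, and the groups did not overlap. The difference was -0.31 ± 0.12 on the log2 scale, or -19.5% with an interval from -33.0% to -3.21% (edgeR unadjusted p = 0.0264, adjusted p = 0.140). Over 11 other settings the log2 value ran from -0.37 to -0.22 and the lowest adjusted p was 0.0890. Cers2, an overlapping gene on the other strand, shares 75 exonic bases with Setdb1, and the use of strand in counting is not given in the sources used here. In the authors' deposited table the log2 fold change of Setdb1 is -0.27 with an adjusted p of 0.606.

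Atf7ip, whose product protects SETDB1 and takes part in its nuclear retention, varied most between the CKO libraries. Atf7ip (ENSMUSG00000030213, chromosome 6, 136506167 to 136610862) stood at 114 (A) and 102 (B) CPM among WT libraries, and 90.0 (A) and 119 (B) CPM among CKO libraries. CKO A was the lowest of the 4 libraries and CKO B the highest. The log2 difference was -0.04 ± 0.15 (edgeR adjusted p = 0.892), and it was 0.17 without CKO A and 0.05 without WT A. Per kilobase, the ratio of Setdb1 to Atf7ip was 0.771 (A) and 0.867 (B) among WT libraries, and 0.834 (A) and 0.559 (B) among CKO libraries, so that CKO B alone lay below the other libraries. With the union of exons as length it was 1.35 and 1.52 (WT) and 1.46 and 0.978 (CKO), so which of the 2 genes is higher depends on the length used. The ratio of Trim28 to Setdb1 was 7.60 and 7.43 in WT and 9.32 and 9.55 in CKO, where the groups did not overlap. These ratios are descriptions and were not tested.

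Ehmt1 and Ehmt2, the partners of the G9a/GLP complex, were close to WT. Ehmt1 (ENSMUSG00000036893, chromosome 2, 24789928 to 24919614) stood at 79.7 (A) and 76.7 (B) CPM among WT libraries, and 73.1 (A) and 73.6 (B) CPM among CKO libraries, a log2 difference of -0.09 ± 0.11 (edgeR adjusted p = 0.650). Ehmt2 (ENSMUSG00000013787, chromosome 17, 34898469 to 34914052) stood at 204, 195, 182 and 168 CPM in the same order, a difference of -0.19 ± 0.11 (edgeR adjusted p = 0.327). For both genes each CKO library lay below each WT library, and neither difference was called. The interval allowed a change from -21.1% to 11.7% for Ehmt1 and from -26.4% to 4.52% for Ehmt2. Per kilobase Ehmt2 exceeded Ehmt1 by 3.79 times (A) and 3.76 (B) among WT libraries, and 3.68 (A) and 3.38 (B) among CKO libraries. Wiz, a zinc finger protein that binds this complex and is named after its values were seen, stood at 124 ± 6.44 CPM (WT) and 96.7 ± 2.95 CPM (CKO; SD, n = 2), a difference of -0.36 ± 0.11, not called (edgeR adjusted p = 0.0880).

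Suv39h1, the methyltransferase of centromeric repeats, was the least abundant member. Suv39h1 (ENSMUSG00000039231, X chromosome, 8061171 to 8074760) stood at 13.5 (A) and 12.0 (B) CPM among WT libraries, and 11.8 (A) and 10.2 (B) CPM among CKO libraries. The groups did not overlap, but WT B and CKO A were nearly level. The log2 difference was -0.21 ± 0.17 (edgeR adjusted p = 0.494), the widest standard error of the 10. Suv39h1 is X-linked and the 2 CKO libraries differ in Y-linked reads, and CKO A was the higher of them for this gene. The part of sex in its level was not tested. An antisense gene, Gm14820, shares 767 exonic bases with it and was not analysed here.

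Among the HP1 genes Cbx5 was lower in CKO without passing the test, and Cbx1 and Cbx3 stayed within a narrow range. Cbx5 (ENSMUSG00000009575, chromosome 15, 103191544 to 103239816) stood at 148 (A) and 129 (B) CPM among WT libraries, and 105 (A) and 115 (B) CPM among CKO libraries. The groups did not overlap, and the WT libraries differed from each other by 15.5%. The difference was -0.33 ± 0.12 on the log2 scale, or -20.6% with an interval from -34.7% to -3.43% (edgeR unadjusted p = 0.0263, adjusted p = 0.140). Over 11 other settings the log2 value of Cbx5 ran from -0.42 (without WT B) to -0.21 (without WT A). The lowest adjusted p was 0.0941 (edgeR, library size alone), and the authors' deposited table gives -0.30 with an adjusted p of 0.538. Cbx1 (ENSMUSG00000018666, chromosome 11, 96789127 to 96808640) stood at 94.0, 91.6, 89.9 and 85.5 CPM in WT A, WT B, CKO A and CKO B, a log2 difference of -0.08 ± 0.11 (edgeR adjusted p = 0.689). Cbx3 (ENSMUSG00000029836, chromosome 6, 51470360 to 51483704) stood at 56.6, 54.7, 52.8 and 54.7 CPM, a difference of -0.05 ± 0.11 (edgeR adjusted p = 0.817) and the smallest spread over libraries of the HP1 genes. Whether Cbx5 moved differently from its paralogs was not tested. HP1 genes have processed pseudogenes that can take up reads, and the 3 listed for Cbx3 had 0 to 2 reads each per library.

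Per kilobase, Cbx1 made up most of the HP1 transcripts. Its share of the summed Cbx1, Cbx3 and Cbx5 level was 61.6% (A) and 62.7% (B) among WT libraries, and 64.3% (A) and 61.9% (B) among CKO libraries. Cbx3 held 24.6% and 24.8% in WT and 25.03% and 26.2% in CKO, and Cbx5 held 13.8% and 12.5% in WT and 10.6% and 11.9% in CKO. These shares depend on the transcript length assumed, since with the union of all annotated exons Cbx1 held 45.9% to 50.8% and Cbx5 28.0% to 34.4%.

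Morc3 (ENSMUSG00000039456, chromosome 16, 93832121 to 93876073) stood at 29.9 (A) and 29.8 (B) CPM among WT libraries, and 26.3 (A) and 29.8 (B) CPM among CKO libraries. CKO B lay within the WT values and CKO A below them. The log2 difference was -0.09 ± 0.12 (edgeR adjusted p = 0.700), and without CKO A it was 0.03.

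The members differ far more from each other than between genotypes. In WT, CPM per kilobase of the longest principal transcript was 82.1 ± 1.04 for Trim28, 74.2 ± 1.34 for Cbx1, 49.6 ± 1.66 for Ehmt2 and 29.5 ± 0.680 for Cbx3 (SD, n = 2). Cbx5 (15.7 ± 1.60), Atf7ip (13.4 ± 1.07) and Ehmt1 (13.1 ± 0.361) followed, and neighbours among these were not separated beyond their spread. Setdb1 (10.9 ± 0.0306), Morc3 (7.14 ± 0.0168) and Suv39h1 (4.09 ± 0.355) were lowest. The order rests in part on the length used, because with the union of exons Cbx1 stood at 21.7 and Ehmt2 at 36.4 per kilobase.

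**Figure D2:**
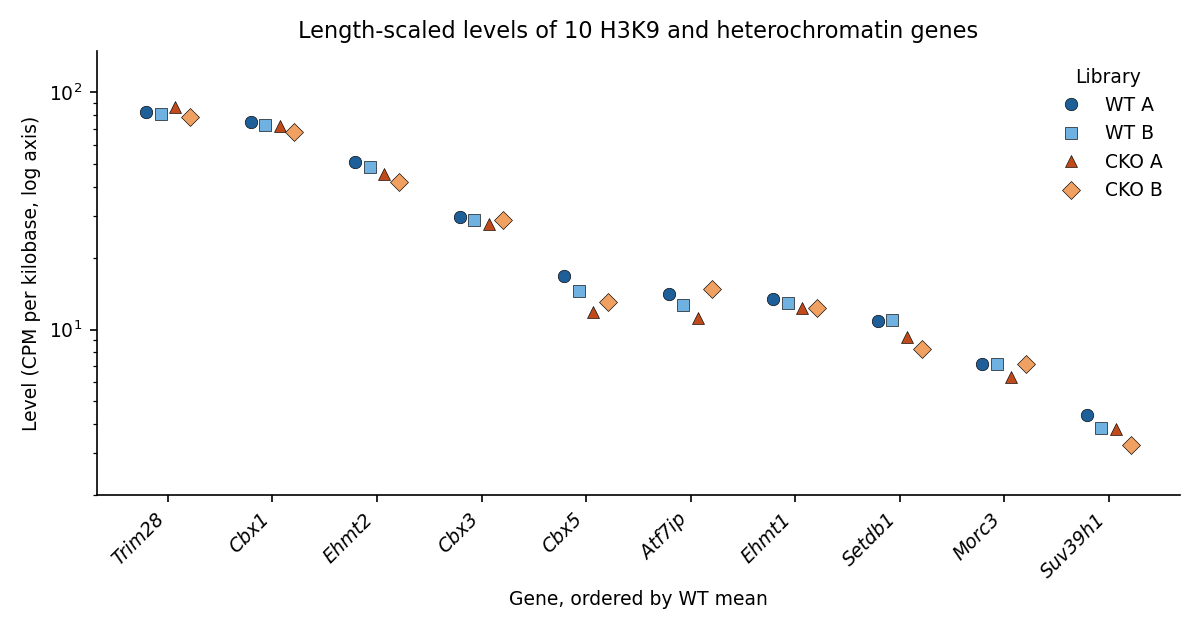
Level of the 10 members in each of the 4 libraries, in CPM per kilobase of the longest principal transcript on a log axis, ordered by the WT mean. Each point is 1 library. Trim28 is highest (82.1 in WT) and Suv39h1 lowest (4.09), and the 4 points of each gene lie close together.

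Among the paralogs of the members Morc1 stood out. Morc1, a germ cell relative of Morc3 that represses transposons in the male germline, was called higher in CKO, with 0 (A) and 1 (B) reads among WT libraries, and 83 (A) and 159 (B) among CKO libraries. On reads pooled by genotype the ratio of CKO to WT was 241 (95% counting interval 42.9 to 9565, exact binomial), which covers counting error only. In edgeR the log2 difference was 7.63 ± 0.80 (SE, adjusted p = 0.00369). Morc1 passed the filter on low counts only through the CKO libraries, where it is high. Of the other MORC genes, Morc2a, which works with the HUSH silencing complex, stood at 73.2 ± 1.37 CPM (WT) and 68.8 ± 3.68 CPM (CKO; SD, n = 2), and the X-linked Morc4 at 14.1 ± 0.561 and 12.1 ± 0.415, neither called (edgeR adjusted p = 0.672 and 0.432). Morc2a shares 483 exonic bases with Tug1 on the other strand, which had 2489 to 3311 reads. Morc2b had 5 reads or fewer in every library.

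Suv39h2, the paralog of Suv39h1 best known from testis, was high in 1 library only. It had 88 (A) and 102 (B) reads among WT libraries, and 490 (A) and 103 (B) among CKO libraries, or 3.86, 3.85, 18.7 and 4.44 CPM. CKO A stood apart and CKO B lay near WT. The log2 difference was 1.59 ± 0.76 (edgeR adjusted p = 0.301), and Suv39h2 was called without CKO B (log2 difference 2.28, adjusted p = 0.000154), a fit with CKO A as the lone CKO library, and not without CKO A (0.23, adjusted p = 0.697). The antisense gene Gm13184, which shares 83 exonic bases with Suv39h2, had 1, 0, 35 and 4 reads in WT A, WT B, CKO A and CKO B. Dclre1c, also on the other strand, shares 357 exonic bases with Suv39h2 and had 76, 119, 79 and 105 reads in the same order. CKO A is also the library with Y-linked reads, and the part of sex was not tested. Setdb2, a relative of Setdb1, stood at 5.46 ± 0.0398 CPM (WT) and 8.36 ± 1.17 CPM (CKO; SD, n = 2), which left a log2 difference of 0.61 ± 0.20, not called (edgeR adjusted p = 0.109). Atf7ip2, the germ cell relative of Atf7ip, had 0, 4, 12 and 4 reads in WT A, WT B, CKO A and CKO B and was too low to be tested.

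**Figure D3:**
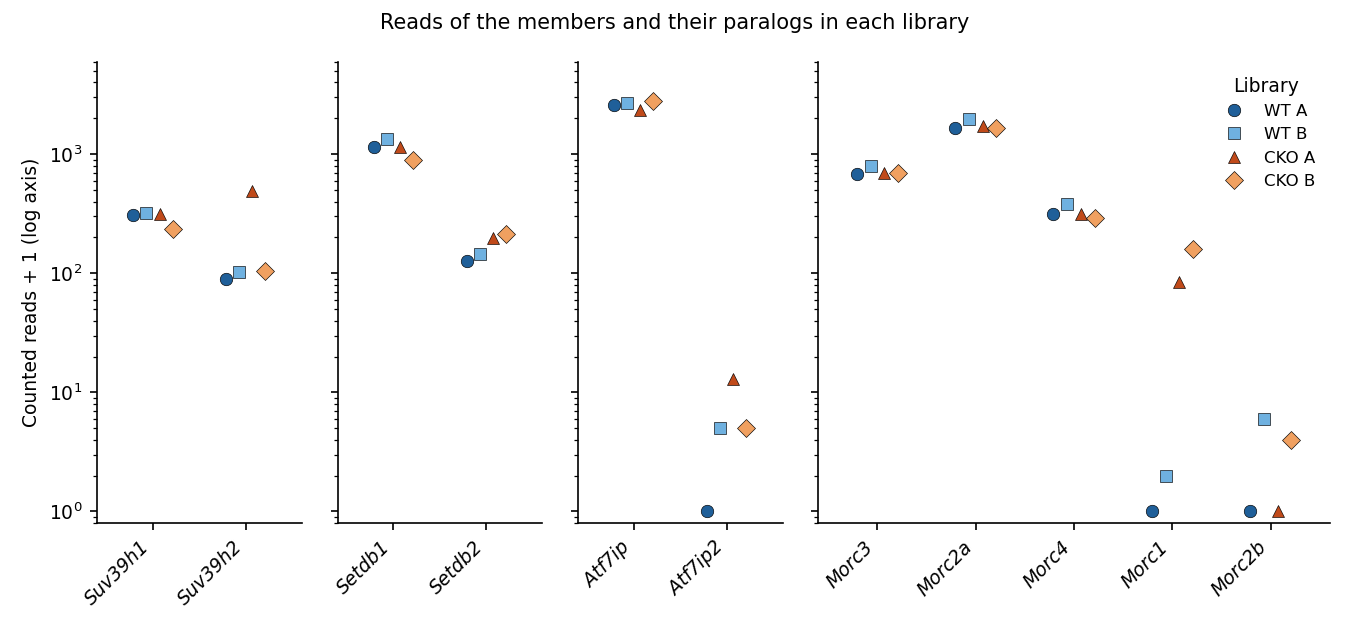
Counted reads plus 1, on a log axis, of Suv39h1, Setdb1, Atf7ip and Morc3 and of their paralogs in each of the 4 libraries. Each point is 1 library. Morc1 has 0 and 1 reads in WT against 83 and 159 in CKO, and Suv39h2 has 490 reads in CKO A against 88 to 103 in the other libraries.

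Across the wider pathway 2 genes were called. Of 50 further genes of H3K9 methylation, demethylation, heterochromatin assembly and the Polycomb Cbx group, 46 could be tested, and 1 was higher (Morc1) and 1 lower (Kmt5c) in CKO, beside 4.85% and 2.75% of all tested genes. Their median log2 difference was -0.09, beside -0.01 for all tested genes, and 29 of the 46 lay below 0. Among 19 tested partners and other H3K9 writers 0 were called in edgeR, and the list's median was -0.09. At an unadjusted p under 0.05, 2 were higher and 1 lower, beside 1994 and 1833 of the 15210 tested genes. DESeq2 and limma-voom called 0 of these 19. Gm15446, a KRAB zinc finger gene, had the largest negative difference there (-0.56 ± 0.27, edgeR adjusted p = 0.247). Zfp809, whose product brings TRIM28 to a retroviral primer binding site and is named after its values were seen, differed by 0.46 ± 0.16 (edgeR adjusted p = 0.124) and was called without CKO A (0.61, adjusted p = 0.0440), a fit with 1 CKO library that is assumed to vary like WT, and not without CKO B (0.33, adjusted p = 0.293).

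Kmt5c encodes a methyltransferase of histone H4 lysine 20 that HP1 brings to heterochromatin, and it was lower in both CKO libraries. It stood at 45.1 (A) and 42.0 (B) CPM among WT libraries, and 29.4 (A) and 29.0 (B) CPM among CKO libraries, with no overlap of the groups. The log2 difference was -0.57 ± 0.11, a level 1.49-fold lower than in WT (SE, n = 2 per genotype, edgeR adjusted p = 0.0232). The call was lost without WT A (-0.51, adjusted p = 0.184) and without WT B (-0.62, adjusted p = 0.129), where the difference was of similar size. Its paralog Kmt5b stood at 86.7 ± 0.0202 CPM (WT) and 84.4 ± 6.66 CPM (CKO; SD, n = 2; edgeR adjusted p = 0.867). In the same list of 12 tested assembly genes Atrx, an X-linked chromatin remodeller of repeats, stood at 270 and 255 CPM in WT and 184 and 209 in CKO, which left a log2 difference of -0.41 ± 0.12, not called (edgeR adjusted p = 0.0731). DESeq2 and edgeR with library size alone called Atrx lower (adjusted p = 0.0403 and 0.0481). Lmnb1, the lamin B1 gene and the most abundant of that list per kilobase, differed by -0.21 ± 0.11 (edgeR adjusted p = 0.288).

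Of the 10 tested H3K9 demethylase genes 0 were called in edgeR, and the median log2 difference was -0.15. By the unadjusted p (under 0.05) 2 lay lower and 0 higher, beside 1833 and 1994 of the 15210 tested genes. DESeq2 and limma-voom called 0 of these 10. The largest differences were those of Kdm7a (-0.40 ± 0.14), Kdm3b (-0.30 ± 0.11) and the X-linked Phf8 (-0.29 ± 0.13), with edgeR adjusted p-values of 0.119, 0.138 and 0.204. Kdm7a was called lower without CKO B (-0.58, adjusted p = 0.0325), where CKO A is assumed to vary like WT, and not without CKO A (-0.21, adjusted p = 0.367). Kdm1a and Kdm4a, the most abundant per kilobase of principal transcript (with the union of exons Phf2 was higher), differed by -0.13 ± 0.11 and -0.11 ± 0.12 (edgeR adjusted p = 0.517 and 0.600).

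The Polycomb Cbx genes, which read methylated H3 lysine 27 and share the chromodomain with the HP1 genes, had a median log2 difference of 0.50 over 5 genes. None of the 5 was called in edgeR. At an unadjusted p under 0.05, 2 were higher, as were 1994 of the 15210 tested genes. With limma-voom 0 of the 5 were called, and with DESeq2 1. Cbx8 and Cbx7 differed by 0.57 ± 0.22 and 0.50 ± 0.29 (edgeR adjusted p = 0.154 and 0.334), and Cbx6, the most abundant per kilobase, by 0.21 ± 0.15 (adjusted p = 0.414). Cbx7 and Cbx8 were called higher without CKO A, again with 1 CKO library, and Cbx8 also with no filter on low counts. Whether the Polycomb and HP1 groups differ from each other was not tested.

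**Figure D4:**
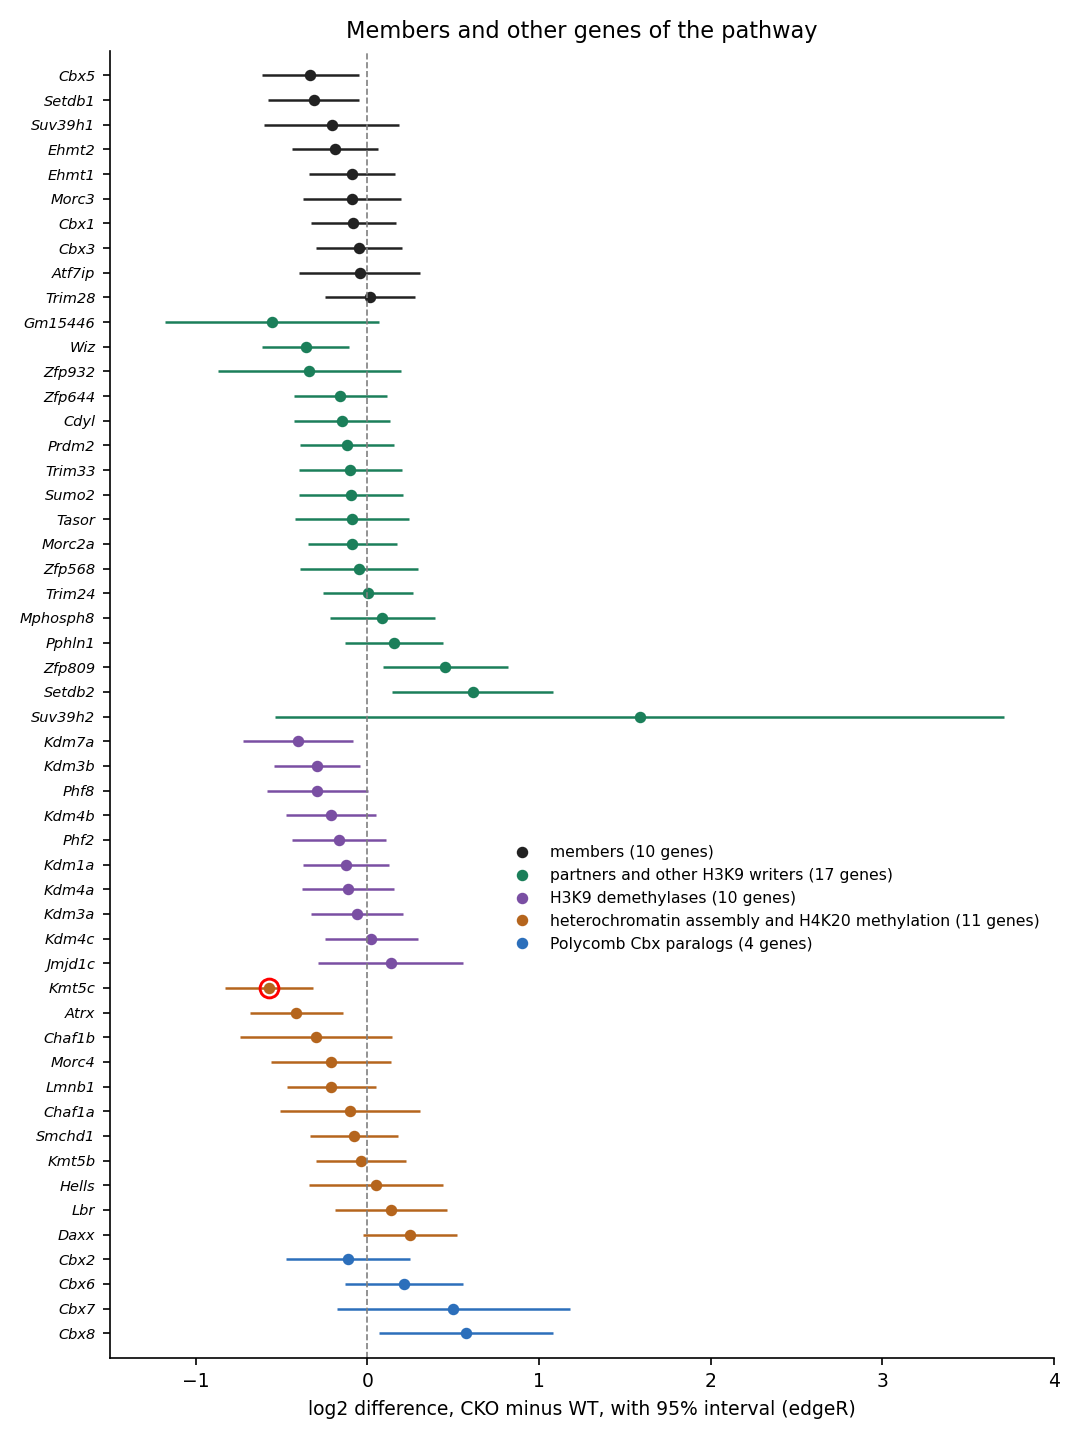
Log2 difference of CKO minus WT (edgeR) with its 95% interval for the 10 members and further tested pathway genes, coloured by list. Morc1 is left out because its difference rests on 1 WT read, and some other genes of the lists are not shown. The red circle marks Kmt5c, the gene shown that passed the test, and the members lie between -0.33 and 0.01.

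Genes of cycling cells are given beside these values. Of 15 proliferation markers 0 were called in edgeR. By the unadjusted p (under 0.05) 4 lay lower and 0 higher, beside 1833 and 1994 of the 15210 tested genes. The median log2 difference of the markers was -0.12. Of the 15 differences 11 lay below 0 and 4 above, those of Pcna (0.10), Mcm2 (0.10), Mcm7 (0.07) and Mcm5 (0.01). DESeq2 called 1 of them and limma-voom 0. Their summed level was 1195 and 1082 CPM in WT and 1023 and 978 CPM in CKO. Mki67, a marker of cycling, stood at 318 and 308 CPM in WT and 218 and 250 in CKO (edgeR adjusted p = 0.0744). The part of cycling in the levels of Cbx5, Setdb1, Suv39h1 and Kmt5c was not tested.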

How the data were processed

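Raw read counts per gene of 4 libraries (2 WT, 2 CKO) were deposited by the authors. Per the submitters' processing notes, the tools were STAR, Trimmomatic 0.36, FastQC 0.11.8, edgeR 3.28.1 and cutadapt 2.5, on GRCm38.p6; the counting tool is not given in the sources used here. The deposited table also holds the authors' log2 fold changes, p-values and adjusted p-values, quoted only where named, and 4 further per-sample columns that were not used. Count columns say Control or Mutant and carry no replicate number; WT B and both CKO libraries share a number in their names. Depth was 23071657 to 26420648 reads, 1 read being 0.0378 to 0.0433 CPM before scaling. The labels do not say that replicates are separate animals or litters. A p-value sets the difference between genotypes against variance estimated from these libraries alone and, in edgeR, moderated over all tested genes. Within CKO the Y-linked gene Ddx3y (2494 and 0 reads) shows that the libraries are not repeats of 1 animal. Replicates of each genotype differed by more than counting noise (chi-square per degree of freedom 11.3 among WT, 22.2 among CKO), and no libraries were merged.

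CKO was compared with WT in R 4.3.3 with edgeR 4.0.16 (filterByExpr with a minimum count of 10, TMM, robust glmQLFit and glmQLFTest, Benjamini-Hochberg over 15210 genes, threshold 0.05). Standard errors are the log2 change divided by the root of F, and 95% intervals use the t quantile of the fitted degrees of freedom. The procedure was tested on simulated data with rises larger than any member difference and the same dispersion for every gene. That test does not cover changes of the members' size. Alternatives were DESeq2 1.42.0, limma-voom (limma 3.58.1), other scalings and filters, and leaving out each library. Gene positions, lengths and overlaps came from GENCODE M21, matched for 31171 of 31247 genes; promoters came from RefSeq (GRCm38.p6), matched for 10 of 10 members and 8 of 10 pathway genes looked up. Members and gene lists were chosen with earlier results of these data known. Named genes are the members, Dnmt1, called genes of each list, the 3 largest differences and 2 highest levels per kilobase in each pathway list, and defining markers. Some genes under this rule are not reported here, though counts over a list include them.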

Additional observations from a re-analysis of the deposited data

How the results depend on the processing

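The count of members called was 0 under all 11 alternatives, with 0 to 2 members at an unadjusted p under 0.05. The count of all genes called was 2459 with no filter on low counts and ran from 339 (without WT B) to 1842 (without CKO A). Pathway genes called numbered 4 in DESeq2, 4 with library size alone and 4 with no filter, and from 1 (without WT B) to 6 (without CKO A). Proliferation markers called numbered 1 in DESeq2, 1 with library size alone and 0 to 1 with a library left out. The difference of Trim28 turned to -0.015 with library size alone and ran from -0.025 to 0.090 with a library left out, that of Atf7ip from -0.25 to 0.17, that of Cbx3 from -0.065 to 0.0033 and that of Morc3 from -0.17 to 0.026, none called. The cause of these changes was not tested. Levels per kilobase under other gene lengths were added after seeing the data. No paired analysis was possible because the count columns carry no replicate number.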
